A study of Mus musculus with 8 samples.

Results

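The cytosolic ribosomal protein genes encode the protein subunits of the ribosomes that translate nuclear messenger RNA. They were taken as every probe set of the array whose annotation gave a single gene symbol made of Rpl or Rps and a number, with at most a closing a, x, y or l, or the symbol Rplp0, Rplp1, Rplp2 or Rpsa. The kinases named Rps6k were left out. The rule found 100 of the 45101 probe sets, belonging to 46 of the 18193 genes that have a probe set with a single symbol, and Rplp1 was not among them. Of the 100, 56 probe sets (22 genes) belonged to the small subunit and 44 (24 genes) to the large subunit with its stalk. A further 110 probe sets carried a ribosomal protein symbol together with another symbol and were kept apart.

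The cells were conventional dendritic cells sorted from the spleens of female C57BL/6 mice that received no treatment and were aged 10 weeks by the sample labels, and their total RNA was measured on 8 Affymetrix arrays. There were 4 groups of 2 arrays each, namely CD8α- and CD8α+ cells from wild type mice and CD8α- and CD8α+ cells from RAG2-/- mice (here also called knockout). RAG2 is one of the enzymes that rearrange antigen receptor genes, and mice that lack it make no mature T or B cells, in every tissue and not in dendritic cells alone. The labels number the arrays of a group without saying that they came from separate mice, so p-values may measure technical spread only.

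Ribosomal proteins assemble with ribosomal RNA into a small subunit, which reads the messenger RNA, and a large subunit, which joins the amino acids. Their genes are transcribed at high rates in every growing cell, and the messenger RNAs begin with a stretch of pyrimidines, the 5′ terminal oligopyrimidine tract, through which the kinase mTOR controls their translation. Because each protein is needed in a fixed ratio, the transcripts are often used as a steady reference between samples. The genome holds many processed pseudogenes of these genes, so a probe set named for a gene may also report a near-identical copy.

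The tract was visible at some of the annotated start sites. RefSeq promoters (mouse build GRCm38.p6) were found for 40 of the 46 genes, in 48 entries. A run of at least 5 C or T that begins with C exactly at the start site was present in 8 of the 40 (20.0%), against 3.01% of the 27025 genes in the table. With the run allowed to begin within 10 bases of the start site on either side, a position chosen after the data were seen, the shares were 65.0% and 34.4%. The motif CCGGAAG, a binding sequence of ETS family factors, was found on either strand of the 300-base window in 20 of the 40 (50.0%), against 9.93% of the table. A match describes letters and not a bound site. The 8 genes with the run at the start are printed first because the sequence marks the transcript class, and Rps27l, a gene described below, follows without such a run. Each line gives 20 bases before the start site and 25 from it, 5′ to 3′ on the gene's strand, with the run in capitals.
Rps6 (chr4:86857343-86857387, minus strand): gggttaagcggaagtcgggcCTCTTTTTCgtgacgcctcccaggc
Rps10 (chr17:27635220-27635264, minus strand): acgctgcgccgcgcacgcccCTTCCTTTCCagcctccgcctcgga
Rps18 (chr17:33955641-33955685, minus strand): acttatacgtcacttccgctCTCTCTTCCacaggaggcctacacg
Rps27 (chr3:90213624-90213668, minus strand): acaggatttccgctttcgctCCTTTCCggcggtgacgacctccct
Rpl14 (chr9:120571497-120571541, plus strand): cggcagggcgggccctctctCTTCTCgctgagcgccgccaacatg
Rpl35 (chr2:39005107-39005151, minus strand): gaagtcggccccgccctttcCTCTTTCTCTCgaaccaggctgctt
Rpl38 (chr11:114668560-114668604, plus strand): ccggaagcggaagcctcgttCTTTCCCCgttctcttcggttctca
Rplp2 (chr7:141447631-141447675, plus strand): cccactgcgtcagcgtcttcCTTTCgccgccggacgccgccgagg
Rps27l (chr9:66946066-66946110, plus strand): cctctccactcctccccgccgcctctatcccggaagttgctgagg

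Values are log2 expression per probe set as deposited. No gene's level is set against another's, since each probe set has its own probes. The sort was visible in Cd8a, at 5.80 and 6.10 in wild type CD8α- cells against 11.73 and 11.94 in CD8α+ cells, and at 6.90 and 7.70 against 12.31 and 12.51 in the knockout. Both Rag1 and Rag2 stayed below 5 on all 8 arrays and carried no information on the genotype. The 4 knockout arrays shared a lowest value of 2.23, held by 18217 to 18893 probe sets each, while the lowest value of a wild type array was 1.16 to 1.17 and was held by 1. The sources used do not say which arrays were normalized as one, so in every comparison between the genotypes biology and a possible separate processing cannot be told apart. Of the 10 listed neutrophil markers, 8 were on the array and 5 passed the filter. Their summed level was 5.80 to 6.32 on the wild type arrays but reached 12.96 on knockout CD8α- replicate 2 and 11.54 on knockout CD8α+ replicate 1, with Elane and Mmp8 below 5 on every array. B cell markers summed to 13.27 to 13.87 in wild type and 12.15 to 12.50 in the knockout, with Cd79a and Pax5 below 5 on every array. Most of that sum was Ighm, at 12.96 to 13.42 and 12.06 to 12.4. Jchain stood at 9.32 to 10.56 in wild type and 2.23 to 6.12 in the knockout. Ms4a1 stood at 10.15 to 11.05 against 5.81 to 7.62, and Pou2af1 at 5.81 to 6.68 against 3.9. Cd79b overlapped, at 5.96 to 9.27 and 4.49 to 8.29. NK cell markers, of which 4 of 5 were on the array, summed to 6.28 to 7.76 in wild type and 8.63 to 11.62 in the knockout, with Ncr1 and Prf1 below 5 on every array. The 9 macrophage markers summed to 12.29 to 12.64 in wild type and 13.71 to 13.83 in knockout CD8α- cells, and to 11.95 to 12.53 and 12.40 to 12.84 in CD8α+ cells, with C1qc at 2.08 to 2.57 on the wild type and 6.08 to 8.32 on the knockout arrays. In such bulk samples, fewer cells of a type and less RNA per cell cannot be told apart. The part of these markers in the results was not tested beyond leaving out the arrays with neutrophil transcripts.

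Of the 100 probe sets, 84 (42 genes) reached a log2 of 5 on at least 2 of the 8 arrays, 44 of the small and 40 of the large subunit, and entered the test of 16939 probe sets. The other 16, from 13 genes, never rose above 4.31. Among them were the only probe sets of Rpl3l, a striated muscle copy of Rpl3 (2.23 to 2.79 over the arrays), and of Rpl39l, a testis copy of Rpl39 (2.31 to 3.80). The probe sets of Rps16 (2.23 to 2.26) and Rps27 (2.08 to 2.23) also had no partner past the filter under the rule. For 9 genes, Rpl27a, Rpl35, Rps18, Rps20, Rps24, Rps3, Rps4x, Rps6 and Rpsa, a probe set below the filter stood beside at least 1 that passed, so a low value there is a property of the probe set and not evidence that the transcript is missing.

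In the values as deposited, the 84 varied less over the arrays than the tested probe sets as a whole. The range from the lowest to the highest of the 8 arrays had a median of 1.01, against 1.56 over all 16939 probe sets tested, and was under 0.5 in 12 of the 84 (14.3%), against 2.72% of all. It was above 1 in 42 (50.0%), against 78.3% of all. The smallest range was that of Rpl19, part of the bridge between the subunits, which ran from 14.43 to 14.64. Rpl38, a large subunit protein needed for translation of Hox messenger RNAs, ran from 14.44 to 14.66. A probe set of Rps10 (1456497_x_at), at the head of the small subunit, ran from 13.82 to 14.07, and that of Rps19, the gene most often mutated in Diamond-Blackfan anaemia, from 13.44 to 13.77. The other 8 were probe sets of Rps28 (2 of them), Rps18 (2 of them), Rpl39, Rps29, Rpl37a and Rpl27, with ranges of 0.35 to 0.49. The Rpl37a probe set among them, at 4.84 to 5.27, lay near the filter's level, where a small range says little. The median SD within a group was 0.157 for the 84 and 0.272 over all. The median level of the 84 was 13.55 to 14.03 on the 8 arrays, against 8.0 to 8.16 for all probe sets tested. Neither here nor below was their spread compared with that of probe sets of like level. A steady probe set did not vouch for its gene, however, as other probe sets of Rps10, Rps18, Rps29, Rpl37a and Rpl27 were among those that differed between the genotypes.

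The first question was whether the subsets differed. Between CD8α+ and CD8α- cells of wild type mice, 2 of the 84 probe sets passed an adjusted p of 0.05 (limma), both higher in CD8α+ cells, or 2.38% against 12.7% of all probe sets tested (6.98% higher, 5.74% lower). They were Rps4l and Rpl14. The median difference was 0.05 (all probe sets: 0.02), and 86.9% of the 84 lay within 0.5 of no change, against 64.0% of all. In 51.2% of the 84 the arrays of the subsets did not overlap, against 57.9% of all. In the knockout, 8 of the 84 passed, 7 higher and 1 lower in CD8α+ cells, or 9.52% against 16.2% of all (7.69% higher, 8.47% lower). The median was 0.02 (all: -0.01), 86.9% lay within 0.5, against 56.5% of all, and the subsets did not overlap in 31.0%, against 54.8% of all. The lower share of calls among these genes depended on the filter. Without it, 3.0% of 100 probe sets were called in wild type and 4.0% in the knockout, against 2.66% and 3.3% of all. The knockout count of 8 fell to 1 and 3 when CD8α+ replicate 1 or 2 was left out, and to 2 and 5 when it was CD8α- replicate 1 or 2. Without both arrays that carry neutrophil transcripts it was 2, Rps4l and Rpl14 again. The wild type count of 2 fell to 0 without either CD8α+ array or without CD8α- replicate 2, and to 1 without CD8α- replicate 1 or either knockout CD8α+ array. A group left with 1 array has no spread of its own in these fits and takes that of the remaining groups. The share of all probe sets called was also lower in each of the fits named here. A fall of the count is therefore not in itself particular to these genes.

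**Figure D1:**
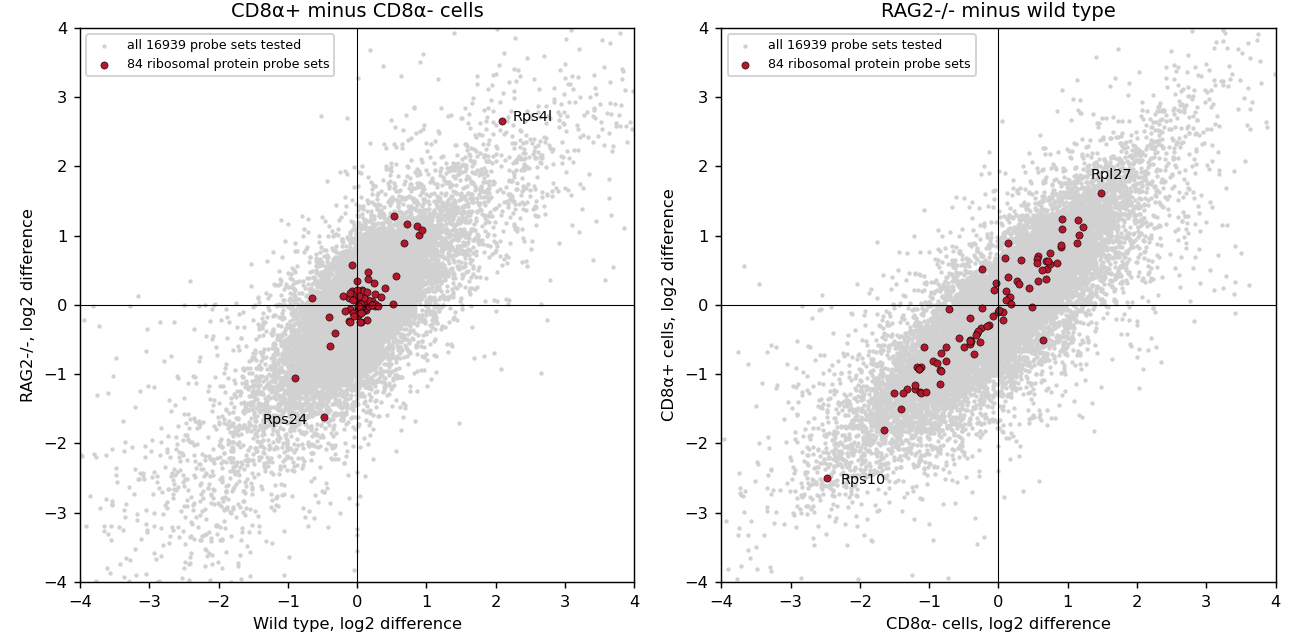
Left, log2 difference of CD8α+ minus CD8α- cells in wild type (horizontal) and RAG2-/- (vertical). Right, log2 difference of RAG2-/- minus wild type in CD8α- (horizontal) and CD8α+ cells (vertical). Grey points are all 16939 probe sets tested (those beyond 4 are not shown) and red points the 84 ribosomal protein probe sets. The red points crowd around 0 on the left, with medians of 0.05 and 0.02, and spread along the diagonal on the right, with 90.5% on the same side of 0 in both subsets.

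Among small subunit genes, Rps4l had the largest difference. It is named for its likeness to Rps4x, an X-linked small subunit gene. The Rps4l probe set stood at 5.28 and 4.56 in wild type CD8α- cells against 7.0 and 7.02 in wild type CD8α+ cells. In the knockout it stood at 4.35 and 5.69 against 7.83 and 7.53. All 4 CD8α+ arrays were above all 4 CD8α- arrays, of which 2 lay under the filter's level of 5. The log2 difference was 2.09 (SE 0.45, adjusted p = 0.0288) in wild type and 2.65 (SE 0.45, adjusted p = 0.0108) in the knockout. Leaving out knockout CD8α+ replicate 1 brought the knockout difference to 2.51 with an adjusted p of 0.0655, while the other 7 omissions kept its call. The wild type call was lost without any of the 4 wild type arrays or either knockout CD8α+ array, with differences of 1.73 to 2.45 and adjusted p up to 0.171. The tested Rps4x probe set, in contrast, differed by 0.04 (SE 0.21) and -0.25 (SE 0.21) and was not called.

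Rps27l, a copy of Rps27 that is a target of p53, had 3 probe sets that gave like values. On 1450925_a_at it stood at 10.62 and 9.92 in wild type CD8α- cells and 11.26 and 11.15 in CD8α+ cells, and at 9.55 and 9.48 against 10.46 and 10.73 in the knockout. Within each genotype both CD8α+ arrays were above both CD8α- arrays. The 3 probe sets were higher in knockout CD8α+ cells by 1.08 (SE 0.26), 1.01 (SE 0.26) and 1.17 (SE 0.21), with adjusted p of 0.036, 0.0428 and 0.0132. In wild type the same 3 differed by 0.94 (SE 0.26), 0.89 (SE 0.26) and 0.72 (SE 0.21), with adjusted p of 0.0663, 0.0764 and 0.0789, and none was called. No difference between the genotypes in this respect was called either, as the interaction below shows. Leaving out 1 array ended the knockout call in 3 to 6 of 8 cases per probe set, each of them including knockout CD8α- replicate 1 and both knockout CD8α+ arrays, with adjusted p up to 0.161. Without both arrays that carry neutrophil transcripts the differences were 1.18, 1.21 and 1.39, with adjusted p of 0.153, 0.142 and 0.057.

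Rps3 and Rps24 each had a call on 1 probe set that their other probe sets lacked. Rps3 lines the messenger RNA entry channel and also acts in DNA repair. Its probe set 1455600_at stood at 7.84 and 8.17 in knockout CD8α- cells and 9.23 and 9.35 in CD8α+ cells, and at 7.96 and 8.51 against 8.56 and 8.98 in wild type. The subsets did not overlap in either genotype, and the difference was 1.28 (SE 0.26, adjusted p = 0.0213) in the knockout and 0.53 (SE 0.26, adjusted p = 0.274) in wild type. The other tested Rps3 probe set, 1435151_a_at, differed by 0.13 and 0.02 and was not called. For Rps24, whose transcript is known for alternative ends, 1455195_at stood at 9.68 and 9.34 in knockout CD8α- cells and 7.51 and 8.25 in CD8α+ cells. This was the single fall among the calls, at -1.62 (SE 0.33, adjusted p = 0.0195), and it was -0.48 (SE 0.33, adjusted p = 0.44) in wild type, where the arrays stood at 8.87 and 8.87 against 8.06 and 8.72. The other 4 tested Rps24 probe sets differed by -0.59 to -0.03 in the knockout, and none was called. The Rps3 call ended without knockout CD8α- replicate 1 or either knockout CD8α+ array (adjusted p up to 0.0998), and the Rps24 call without replicate 1 of either knockout subset (up to 0.0968). Without both arrays with neutrophil transcripts the values were 1.51 (adjusted p = 0.097) and -1.42 (0.1).

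In the large subunit, Rpl14 was higher in CD8α+ cells of both genotypes. It stood at 9.35 and 9.55 in wild type CD8α- cells and 10.31 and 10.31 in wild type CD8α+ cells. In the knockout it stood at 8.15 and 8.42 against 9.35 and 9.50. The subsets did not overlap within a genotype, whereas the knockout CD8α+ arrays lay at the level of the wild type CD8α- arrays. The difference was 0.86 (SE 0.18, adjusted p = 0.0280) in wild type and 1.14 (SE 0.18, adjusted p = 0.00885) in the knockout. The knockout call remained whichever single array was left out (1.01 to 1.28, adjusted p at most 0.046), and it was the only subset call of which this held. The wild type call was lost without any of the 4 wild type arrays (0.76 to 0.96 over all 8 omissions, adjusted p up to 0.153).

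Rpl13a, which besides its place in the ribosome silences inflammatory messenger RNAs in myeloid cells, was called on 1 of its 4 probe sets. That probe set, 1433928_a_at, stood at 11.17 and 11.05 in knockout CD8α- cells and 11.99 and 12.02 in CD8α+ cells, and at 12.42 and 12.03 against 12.95 and 12.83 in wild type. The difference was 0.90 (SE 0.20, adjusted p = 0.0257) in the knockout and 0.67 (SE 0.20, adjusted p = 0.0786) in wild type. The knockout call was lost without any of the 4 knockout arrays (adjusted p up to 0.0918), and without both that carry neutrophil transcripts the value was 0.85 (0.143). The other 3 Rpl13a probe sets differed by -0.10 to 0.31 in the knockout and by 0.01 to 0.40 in wild type.

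**Figure D2:**
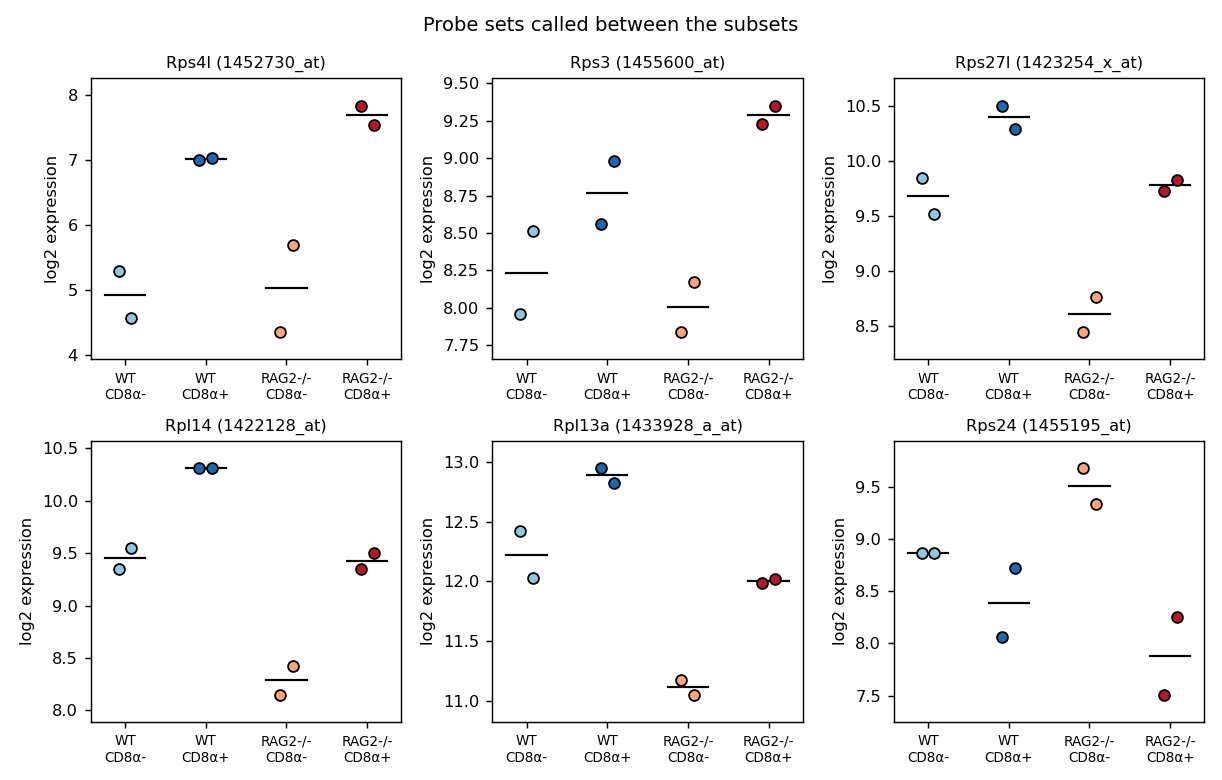
Log2 expression (vertical) of 6 of the probe sets called between the subsets, in the 4 groups (horizontal). Points are the 2 arrays of a group and the bar is their mean. A gene called on several probe sets is shown by the one with the largest knockout difference. Rps4l, Rpl14, Rps27l, Rpl13a and Rps3 are higher in CD8α+ cells and Rps24 lower. Rps4l lies between 4.35 and 5.69 in CD8α- cells and between 7.0 and 7.83 in CD8α+ cells.

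The remaining 76 probe sets of the knockout comparison and 82 of the wild type comparison were not called. The stalk proteins, which recruit the elongation factors, were among them. Rplp0 differed by 0.26 (SE 0.19) in wild type and -0.01 (SE 0.19) in the knockout, and Rplp2 by -0.11 (SE 0.17) and -0.25 (SE 0.17). The laminin receptor gene Rpsa, a small subunit protein, differed by 0.14 (SE 0.18) and 0.18 (SE 0.18). Rps6, the substrate of the S6 kinases, differed by 0.00 (SE 0.22) and 0.35 (SE 0.22). Rps26, at the messenger RNA exit, came near the threshold, at 12.91 and 13.07 in wild type CD8α- cells against 13.54 and 13.56 in CD8α+ cells, with a difference of 0.56 (SE 0.17, adjusted p = 0.0858), and 0.42 (SE 0.17, adjusted p = 0.145) in the knockout. Rps9, a protein that guards decoding accuracy, ran the other way on 1426958_at, by -0.90 (SE 0.30, adjusted p = 0.117) and -1.06 (SE 0.30, adjusted p = 0.0608).

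The differences of the 84 between the subsets in wild type and in the knockout, which come from separate arrays, had a Pearson r of 0.848 and a Spearman rho of 0.490. Only 47 of 84 (56.0%) had the same sign, against 74.7% of all probe sets tested, where r was 0.837 and rho 0.708. The 2 probe sets called in wild type were also called in the knockout. The interaction, which subtracts the genotype difference of CD8α- cells from that of CD8α+ cells and in which an offset shared by the arrays of a genotype cancels, called 0 of the 84 at an adjusted p of 0.05 (limma), against 0.0295% of all, or 5 probe sets, and 0 of the 84 by limma-trend with robust estimation. At an unadjusted p under 0.05 there were 2 of the 84. They were Rps24 on 1455195_at (-1.15, adjusted p = 0.743) and Rps25, a protein needed for initiation at viral internal entry sites, on 1430978_at (0.75, adjusted p = 0.73). Of the 84, 92.9% had an interaction within 0.5 of 0, against 69.7% of all.

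The second question was whether the genotypes differed, a comparison that the processing may enter. In CD8α- cells 38 of the 84 passed, 16 higher and 22 lower in the knockout, or 45.2% against 35.7% of all probe sets (19.1% higher, 16.6% lower). In CD8α+ cells 37 passed, 15 higher and 22 lower, or 44.0% against 33.9% of all (16.7% higher, 17.3% lower). The medians were -0.10 and -0.13 (all: 0.08 and -0.02). When each array was centred on the median of all its probe sets, which was 2.97 to 3.06 in wild type and 2.33 to 2.38 in the knockout, the median difference of all tested probe sets became 0.77 and 0.69, that of the 84 became 0.55 in both subsets, and the calls became 41 higher with 5 lower and 42 higher with 7 lower. The split into higher and lower calls thus turned with the scaling. The median of the 84 lay below that of all probe sets. Centring moves all probe sets of an array by the same amount, so apart from the filter it could not alter this. By quantile normalization the calls were 12 higher with 26 lower in CD8α- cells and 14 with 25 in CD8α+ cells. The groups did not overlap in 82.1% and 89.3% of the 84, against 71.7% and 71.2% of all.

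**Figure D3:**
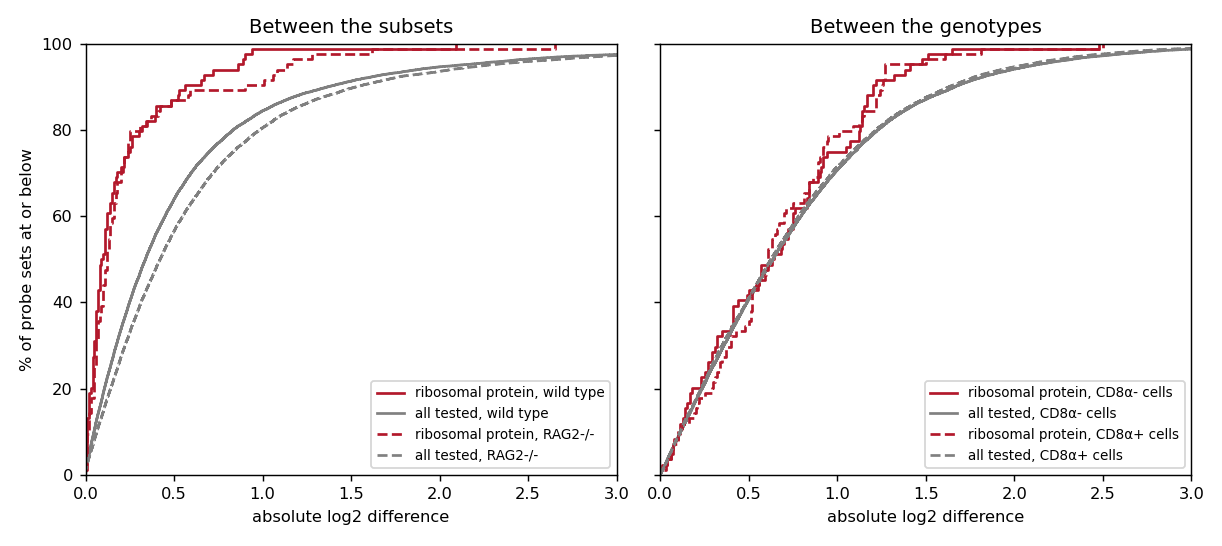
Percentage of probe sets (vertical) whose absolute log2 difference is at or below the value on the horizontal axis, for the 84 ribosomal protein probe sets (red) and all 16939 tested (grey). Left, CD8α+ against CD8α- cells in wild type (solid) and RAG2-/- (dashed). Right, RAG2-/- against wild type in CD8α- (solid) and CD8α+ cells (dashed). Between the subsets 86.9% of the 84 lie within 0.5, above the grey curves at 64.0% and 56.5%. Between the genotypes 41.7% and 34.5% do, near the grey curves at 40.7% and 41.0%.

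The differences of the 84 were less spread between the subsets than between the genotypes. They had an SD over probe sets of 0.36 and 0.49 between the subsets (all: 0.99 and 1.08) and of 0.80 in both comparisons of the genotypes (all: 1.06 and 1.03). Within 0.5 lay 41.7% in CD8α- and 34.5% in CD8α+ cells, close to the 40.7% and 41.0% of all probe sets. The differences in the subsets, which come from separate arrays but share any processing particular to a genotype, had a Pearson r of 0.945 and a Spearman rho of 0.940 over the 84 (all: 0.838 and 0.830), and 76 of 84 (90.5%) had the same sign, against 82.9% of all. Of the probe sets called, 30 were called in both subsets, 10 higher and 20 lower, each in the same direction.

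These counts depended on single arrays. In CD8α- cells the count of 38 was 13 without wild type CD8α- replicate 1 (15.5% against 15.1% of all probe sets in that fit), 18 without wild type CD8α- replicate 2 (21.4% against 18.2%) and 22 without knockout CD8α- replicate 2 (26.2% against 26.5%). In CD8α+ cells the count of 37 was 12 without wild type replicate 1 (14.3% against 15.6%), 15 without wild type replicate 2 (17.9% against 20.5%), 16 without knockout replicate 1 (19.0% against 20.0%) and 22 without knockout replicate 2 (26.2% against 22.6%). Without both arrays with neutrophil transcripts the counts were 20 (7 higher, 13 lower, 23.8% against 26.9%) and 22 (7 higher, 15 lower, 26.2% against 23.3%). In the fits listed the share of the 84 called was thus near that of all probe sets. It stayed above that of all without knockout CD8α- replicate 1 in CD8α- cells, and without any array of the other subset. As it depended on single arrays, the higher share with all 8 arrays is not read as a result about these genes. In both subsets, 10 probe sets of 7 genes stayed called whichever single array was left out, 2 higher and 8 lower in the knockout.

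The 2 higher ones were in the large subunit. Rpl27, which is mutated in some cases of Diamond-Blackfan anaemia, stood on 1416099_at at 12.98, 13.09, 13.05 and 13.11 on the wild type arrays and 14.53, 14.50, 14.63 and 14.76 on the knockout arrays. The genotypes did not overlap, and the difference was 1.48 (SE 0.16, adjusted p = 0.00186) in CD8α- and 1.61 (SE 0.16, adjusted p = 0.00168) in CD8α+ cells. Rpl7, an RNA-binding protein of the large subunit, stood on 1426163_x_at at 12.25 to 12.30 on the wild type arrays and 13.31 to 13.55 on the knockout arrays. Its differences were 1.15 (SE 0.17, adjusted p = 0.0043) and 1.22 (SE 0.17, adjusted p = 0.00383), while its other 2 probe sets had differences of -0.56 to -0.25 and were not called.

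The 8 lower ones came from both subunits. The largest was Rps10 on 1439374_x_at, at 13.08, 13.02, 13.06 and 13.07 on the wild type arrays and 10.62, 10.51, 10.60 and 10.52 on the knockout arrays. The genotypes were far apart and the arrays of each lay close together, with differences of -2.48 (SE 0.16, adjusted p = 0.000543) and -2.50 (SE 0.16, adjusted p = 0.000551). A second Rps10 probe set, 1434854_a_at, differed by -1.65 and -1.81 (SE 0.16 each), with adjusted p of 0.00142 and 0.00127. Yet the other 4 Rps10 probe sets were not called, with differences of -0.10 to 0.49, and 1 of them was among the steadiest of the 84. Rps9 on 1434624_x_at stood at 15.29, 15.22, 15.03 and 14.67 on the wild type arrays and 13.88, 13.62, 13.56 and 13.61 in the knockout, with differences of -1.51 and -1.27 (SE 0.20 each, adjusted p = 0.00311 and 0.00546).

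Among the lower large subunit probe sets, Rpl11, which binds and inhibits the p53 ligase Mdm2, stood at 14.27 to 14.41 in wild type and 12.96 to 13.30 in the knockout. Its differences were -1.20 and -1.22 (SE 0.19 each, adjusted p = 0.00547 and 0.0053), and it had no other member probe set. Rpl13a on 1455485_x_at differed by -1.13 (SE 0.19, adjusted p = 0.00624) and -1.25 (SE 0.19, adjusted p = 0.00482). Rpl35, at the exit of the peptide tunnel, was lower on 5 of its 5 tested probe sets in both subsets, by -1.38 to -0.89 in CD8α- cells and by -1.27 to -0.81 in CD8α+ cells, and 3 of the 5 kept their call whichever array was left out. Its probe set 1455950_x_at stood at 14.59 to 14.71 in wild type and 13.02 to 13.54 in the knockout. When arrays were centred on the median of all probe sets, Rpl11 (-0.54, limma adjusted p = 0.0501) and Rpl13a on 1455485_x_at (-0.47) lost their calls in CD8α- cells. Rpl35 lost them in both subsets on 1416243_a_at (-0.48 and -0.25), 1434231_x_at (-0.28 and -0.13) and 1454856_x_at (-0.23 and -0.16). On 1436840_x_at it lost the call in CD8α+ cells (-0.54) and kept that in CD8α- cells. Only 1455950_x_at kept its Rpl35 call in both subsets.

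Some genes had probe sets called in opposite directions between the genotypes, no larger a share than among all genes. In CD8α- cells 10 of the 19 genes with 2 or more tested probe sets had at least 2 of them called, and 3 of the 10 (30.0%), Rpl27, Rps9 and Rps29, had calls in both directions. In CD8α+ cells these were 2 of 7 (28.6%), Rpl27 and Rps9. Over all genes tested the shares were 325 of 855 (38.0%) and 298 of 771 (38.7%). Between the subsets there were none, neither among the ribosomal protein genes nor among the 315 and 382 genes with 2 called probe sets in wild type and knockout.

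Rpl27 shows how far apart 2 probe sets of a gene can lie. While 1416099_at was higher in the knockout, 1448217_a_at stood at 13.93, 13.51, 13.55 and 13.67 on the wild type arrays and 12.91, 12.12, 12.34 and 12.58 in the knockout. Its differences were -1.20 and -1.15 (SE 0.30 each, adjusted p = 0.023 and 0.0278), and 1453096_x_at differed by -0.23 and -0.04 without a call. In Rps9, 1426958_at was higher by 1.17 and 1.01 (SE 0.30 each, adjusted p = 0.0259 and 0.0428) and 1433689_s_at by 0.68 (SE 0.20, adjusted p = 0.0395) in CD8α- cells, against the fall of 1434624_x_at. In Rps29, a zinc finger protein of the small subunit head, 1438859_x_at was lower by -0.84 and -1.14 (SE 0.21 each, adjusted p = 0.0222 and 0.0088). Its probe set 1415833_x_at was higher by 0.84 (SE 0.20, adjusted p = 0.0203) in CD8α- cells and at 0.61 (adjusted p = 0.0551) in CD8α+ cells. In each of the 3 genes at least 1 of the opposing calls was lost when an array was left out, and without wild type CD8α- replicate 1 or replicate 2 no gene had calls both ways in CD8α- cells. Over all fits with an array left out the number of such genes was 0 to 4 and 0 to 2, and under the other settings 0 to 8 in each subset, with 8 and 8 without the filter and 6 and 6 by limma-trend. With arrays centred on the median of all probe sets neither Rpl27 nor Rps29 had calls both ways, as 1448217_a_at was at -0.55 and -0.48 (adjusted p = 0.148 and 0.204) and 1438859_x_at at -0.18 and -0.47 (adjusted p = 0.487 and 0.105), while Rps9 still did. In that scaling Rps10 had calls both ways in both subsets and Rpl13a in CD8α+ cells, and the number of such genes was 2 and 3. Without both arrays with neutrophil transcripts it was 0 in each subset.

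**Figure D4:**
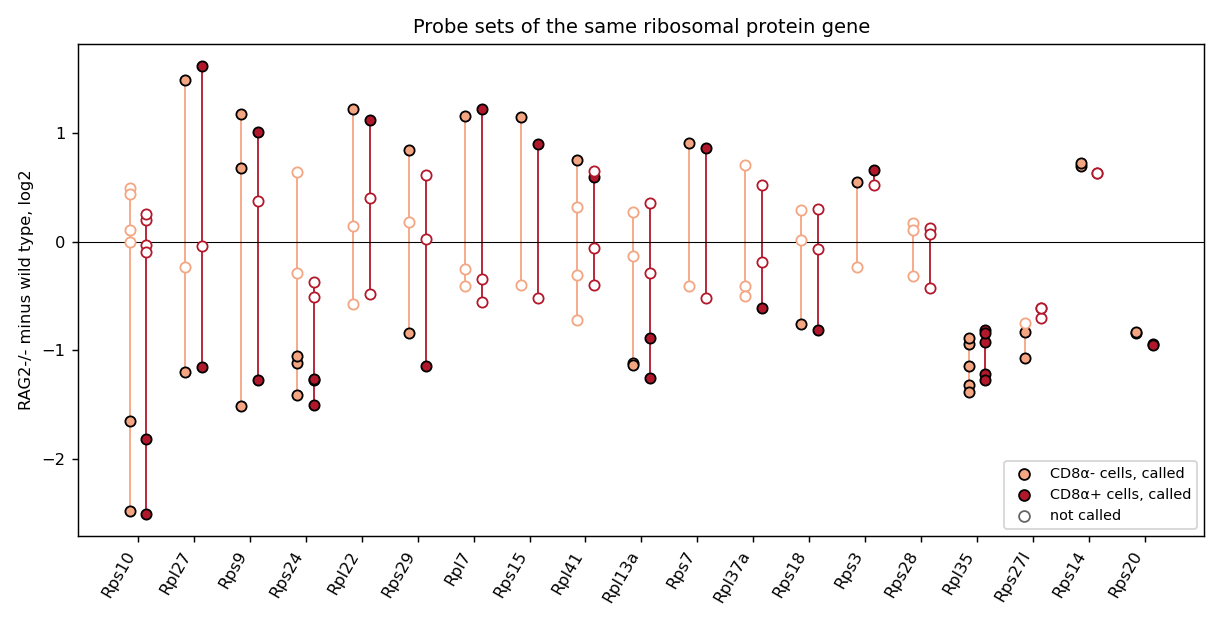
Log2 difference of RAG2-/- minus wild type (vertical) for each tested probe set of the 19 ribosomal protein genes that have 2 or more (horizontal, ordered by their spread in CD8α- cells). Pale points are CD8α- and dark points CD8α+ cells, filled where called at an adjusted p of 0.05. Vertical lines join the probe sets of a gene. Probe sets of Rps10, Rpl27 and Rps9 lie on both sides of 0, while all 5 of Rpl35 lie between -1.38 and -0.81.

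The spread within a gene can be set beside the spread between genes. Over the 19 genes and their 61 probe sets, the SD within a gene was 0.21 and 0.32 for the subset differences in wild type and knockout, and 0.84 and 0.78 for the genotype differences in CD8α- and CD8α+ cells. The SD of the gene means was 0.24, 0.35, 0.48 and 0.51 in the same order. Between the genotypes, the SD within a gene was thus larger than that of the gene means. A mean over several probe sets varies less than a single probe set. The 2 SDs are therefore not like measures, and no conclusion is drawn from their order. Over all 3626 genes with 2 or more tested probe sets, the SD within a gene was 0.42, 0.47, 0.87 and 0.88, and that of gene means 0.89, 0.94, 0.78 and 0.76.

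Some genes went 1 way on every tested probe set. Besides Rpl35, Rps20, a small subunit head protein, was lower on both of its tested probe sets, by -0.84 and -0.83 in CD8α- cells (SE 0.23 and 0.20) and by -0.94 and -0.95 in CD8α+ cells. Rps14, a platform protein whose loss underlies a form of myelodysplastic syndrome, was higher on both in CD8α- cells, by 0.69 and 0.72 (adjusted p = 0.0417 and 0.0428), and had 0.63 and 0.63 (adjusted p = 0.0559 and 0.066) in CD8α+ cells. Rps27l had negative differences on all 3 probe sets, -1.07, -0.83 and -0.75 in CD8α- cells, of which 2 were called, and -0.61, -0.70 and -0.61 in CD8α+ cells, of which none was. Each of these calls was lost in at least 1 of the fits with an array left out: without wild type CD8α- replicate 1 for every call in CD8α- cells, and without either wild type CD8α+ array for those of Rps20 in CD8α+ cells. When arrays were centred on the median of all probe sets, the Rps20 differences were -0.18 (CD8α-) and -0.27 (CD8α+) and were not called. Those of Rps27l were -0.41, -0.17 and -0.09 in CD8α- and 0.06, -0.03 and 0.06 in CD8α+ cells, and none was called. Those of Rps14 were 1.35 and 1.38 in CD8α- and 1.30 and 1.31 in CD8α+ cells, and all were called.

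Other genes had a single tested probe set. Rpl6, an RNA-binding protein of the large subunit, was higher by 0.90 (SE 0.20, adjusted p = 0.0164) in CD8α- and 0.84 (SE 0.20, adjusted p = 0.0213) in CD8α+ cells. Rps2, at the messenger RNA entry, was higher by 0.75 in both subsets (SE 0.17, adjusted p = 0.0155 and 0.0159). Rpl14 was lower by -1.17 (SE 0.18, limma adjusted p = 0.00534) and -0.89 (SE 0.18, adjusted p = 0.0135). With arrays centred on the median of all probe sets, its differences were -0.51 and -0.21 (adjusted p = 0.0729 and 0.42) and were not called. Rpl6 and Rps2 stayed called in both subsets in that scaling. The Rpl6 and Rps2 calls were lost without either wild type array of the subset, among others, and that of Rpl14 in CD8α+ cells without wild type CD8α+ replicate 1 or 2 or knockout CD8α+ replicate 1. The stalk genes Rplp0 (-0.27 and -0.54, SE 0.19 each) and Rplp2 (-0.17 and -0.31, SE 0.17 each), Rps6 (-0.04 and 0.32, SE 0.22 each) and Rps4x (0.06 and -0.22, SE 0.21 each) were not called, and Rpsa (0.56, adjusted p = 0.0514, and 0.60, adjusted p = 0.0436, SE 0.18 each) was called in CD8α+ cells only, without a test of that difference beyond the interaction. The Rpsa call was lost whichever array was left out (adjusted p up to 0.163).

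The kind of a probe set is given by the ending of its name. On these arrays, _x_at marks probe sets with some probes shared with other sequences, _a_at those shared by transcripts of a gene, and _s_at those shared by several transcripts. Of the 84, 38 were _x_at, 25 _a_at, 18 _at and 3 _s_at. Between the genotypes in CD8α- cells 6 of the 38 _x_at probe sets were higher and 15 lower, 5 and 6 of the 25 _a_at, 3 and 1 of the 18 _at and 2 and 0 of the 3 _s_at. In CD8α+ cells the numbers were 4 and 14, 4 and 7, 6 and 1, and 1 and 0. Over all probe sets tested the _x_at kind also had the highest share called, 49.3% and 47.7% in CD8α- and CD8α+ cells, beside 55.3% and 47.4% of the members of that kind. It was 38.3% and 36.3% for _a_at (members 44.0% in both) and 33.6% and 31.7% for _at (members 22.2% and 38.9%). Between the subsets the 18 _at probe sets held both wild type calls (11.1%, against 13.3% of all _at) and 4 of the 8 knockout calls (22.2%, against 2036 of 11981 over all _at). A difference between the kinds was not tested. Whether cross-hybridising probes take part in this was not tested, as probe sequences were not used.

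As a whole, the 84 had a median level of 13.82 to 14.03 on the wild type arrays and 13.55 to 13.71 on the knockout arrays. The median of all tested probe sets was 8.00 to 8.16 on the 8 arrays. The 84 therefore stood 5.76 to 5.93 above it in wild type and 5.39 to 5.59 above it in the knockout, and the 2 genotypes did not overlap. The quartiles of the 84 were also farther apart in the knockout, with an interquartile range of 2.65 to 3.01 against 2.06 to 2.41 in wild type. After quantile normalization of the 8 arrays it was 2.80 to 3.16 against 1.97 to 2.36. That step makes the arrays alike as wholes and leaves differences particular to a probe set. It therefore cannot tell biology from a separate processing of the genotypes.

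Genes that work beside the ribosomal proteins gave few calls between the subsets. The 99 tested probe sets that carry a ribosomal protein symbol together with another had 0 calls in wild type (against 12.7% of all probe sets). In the knockout they had 3 (3.03% against 16.2%), all higher in CD8α+ cells. Between the genotypes 11 were higher with 16 lower in CD8α- cells (27.3% against 35.7%). In CD8α+ cells 9 were higher with 17 lower (26.3% against 33.9%). Of 60 probe sets of elongation and initiation factors, 2 were higher in wild type CD8α+ cells, both of Eif2s2, a subunit of the factor that brings the initiator tRNA (0.92 and 0.74, adjusted p = 0.0256 and 0.0402). In the knockout 2 were higher, both of the helicase Eif4a1 (1.86 and 1.66, adjusted p = 0.0176 and 0.0249). Of 56 ribosome biogenesis probe sets, 2 and 4 were higher, with Polr1a, the largest subunit of RNA polymerase I, at 1.86 (SE 0.30, adjusted p = 0.00937) in wild type and 2.54 (SE 0.30, adjusted p = 0.00255) in the knockout on 1417775_at. The medians of these lists were 0.23 and 0.28, and 0.31 and 0.25, with 0 probe sets lower in CD8α+ cells by adjusted p in any of the 4 counts. The shares called were 3.33% and 3.33% for the factors and 3.57% and 7.14% for biogenesis, against 12.7% and 16.2% of all.

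Mitochondrial ribosomal proteins belong to the separate ribosomes of mitochondria. Of their 111 tested probe sets, 4 were higher in wild type CD8α+ cells (3.60%, against 12.7% of all probe sets) and 13 in the knockout (11.7% against 16.2%), none lower, with medians of 0.16 and 0.43. Mrpl42 differed by 1.35 (SE 0.23, adjusted p = 0.0124) and 1.58 (SE 0.23, adjusted p = 0.00617), and Mrps28 by 1.27 (SE 0.21, adjusted p = 0.011) and 1.30 (SE 0.21, adjusted p = 0.00892). The corresponding medians of the 84 cytosolic probe sets were 0.05 and 0.02, and a difference between the lists was not tested.

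For use as a reference, the 84 can be set beside genes that are commonly used as such, each by its brightest probe set. The range over the 8 arrays was 0.29 for B2m, 0.46 for Hprt and 0.51 for Actb, comparable to the 12 steadiest ribosomal protein probe sets. It was 4.16 for Gusb, a lysosomal enzyme, 3.02 for the transferrin receptor Tfrc, 2.56 for the glycolytic enzyme Pgk1, and 3.31 for the RNA polymerase II subunit Polr2a. These are ranges of the values as deposited. With arrays centred on the median of all probe sets, the 12 steadiest were called between the genotypes in CD8α+ cells. In CD8α- cells Rpl37a on 1416218_x_at (0.24) and Rpl27 on 1453096_x_at (0.43) were not called and the others were. Centring moves B2m, Hprt and Actb by the same amounts, and their values in that scaling are not given here. Gusb was higher in CD8α+ cells by 3.72 (SE 0.36, adjusted p = 0.00147) in wild type and 2.90 (SE 0.36, adjusted p = 0.00345) in the knockout, and Tfrc was lower by -1.84 and -2.22 (SE 0.41 each, adjusted p = 0.0309 and 0.0143). Of the 84, only Rps4l had a subset difference above 2 in either genotype.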

How the data were processed

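Total RNA of sorted cells was labelled with biotin and hybridised to Affymetrix arrays, per the labels. The authors deposited 1 log2 value per probe set and array, and GCRMA and affy are the tools in the submitters' processing notes. Versions, and the sets of arrays that were normalized as one, are not given in the sources used. Scanner files were not used.

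Values were used as deposited. Array controls were dropped, and the filter asked for log2 of 5 or more on 2 or more arrays, which left 16939 probe sets. All 4 groups entered 1 model (limma 3.58.1 under R 4.3.3, eBayes without trend, leaving 4 residual degrees of freedom), from which 5 comparisons were taken. Calls were made at a 2-sided p under 0.05 after Benjamini-Hochberg adjustment over all probe sets tested. The script was tested on simulated data. Each probe set was tested on its own. Symbols came from the platform annotation, where 34945 probe sets had 1 symbol, 932 several and 9160 none. All 46 gene IDs of the members matched a current RefSeq gene of the same symbol. Marker sums are log2 of the summed linear values of each gene's brightest probe set. The number of arrays, and no depth, limits the precision. Python 3.11.15 and matplotlib 3.10.9 made the figures.

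Named probe sets were, in each comparison, the 8 that rose most and the 8 that fell most among called members whose groups did not overlap, the stalk genes, Rpsa, near-copies, members below the filter, genes with opposing calls and the largest differences of the other lists. Those named outside this rule, for their small range, their single direction or as examples of uncalled genes, were chosen after their values were seen. The members and lists were chosen with earlier results of these data known. Alternatives were other scalings and filters, an offset of 16, limma-trend, 1 probe set per gene, the replicate number as a block and leaving out arrays.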

Additional observations from a re-analysis of the deposited data

How the results depend on the processing

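Some of the called probe sets named by the rule were called in every setting that tested them. These were 0 of 2 (subsets, wild type), 1 of 8 (subsets, knockout), 7 of 16 and 7 of 16 (genotypes, CD8α- and CD8α+). With 1 probe set per gene, only 3 of the 8, 5 of the 16 and 7 of the 16 were tested. None of the named probe sets changed direction. The count of the 84 called was 0 to 2 between the wild type subsets, 1 to 8 between the knockout subsets, and 13 to 37 and 12 to 34 between the genotypes when single arrays were left out, and 2, 2, 20 and 22 without both arrays with neutrophil transcripts, an alternative chosen after seeing the data. With limma-trend and robust estimation the wild type subset count was 6. Without the filter 100 were tested, and 3 and 4 were called between the wild type and knockout subsets (3.0% and 4.0%, against 2.66% and 3.3% of all probe sets). Between the genotypes 58 and 63 were called (58.0% and 63.0%, against 62.8% and 62.5% of all). With 1 probe set per gene 42 were tested, and 3 were called between the subsets of each genotype (7.14%, against 17.1% and 21.8% of all). Between the genotypes these counts were 19 and 20 (45.2% and 47.6%, against 40.5% and 36.9% of all). The interaction count was 0 in each setting.

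With the replicate number as a block the counts were 1, 6, 31 and 30. Replicate differences of the groups had r of -0.259 to 0.145, the lowest between the 2 knockout subsets. The labels do not say whether arrays of the 2 subsets came from the same mice or preparation, and r cannot decide it. No pairing was used in the main fit. With numbers exchanged in knockout CD8α- cells, chosen after seeing the data, the counts were 1, 7, 34 and 32.

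The median genotype difference in CD8α- cells moved from -0.10 to -0.23 by quantile normalization, -0.21 when centred on the median of the kept probe sets (chosen after seeing the data) and 0.55 when centred on that of all probe sets, and that in CD8α+ cells to 0.55 by the last. The median knockout subset difference was -0.06 to 0.13 without single arrays, the latter without CD8α- replicate 1. The median interaction, -0.06, was 0.04 by quantile normalization of all arrays or within each genotype and by centring on the kept probe sets, and -0.15 to 0.09 without single arrays. The causes were not tested, apart from the smaller number of arrays or probe sets that some settings hold by construction. Signals near the lowest values carry only a bound.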

Other observations

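Among the 6 tested probe sets of ribosomal proteins whose names fall outside the rule, 0 were called between the subsets and 1, that of Rpl7l1, a nucleolar relative of Rpl7, was lower in both comparisons of the genotypes, by -1.27 (SE 0.23, limma adjusted p = 0.00842) in CD8α- cells. Of the elongation and initiation factors, Eif3l had the largest genotype difference in CD8α- cells, at -2.69 (SE 0.19, adjusted p = 0.000609) on 1437948_x_at. Mitochondrial ribosomal proteins had 18 probe sets higher and 27 lower in knockout CD8α- cells, and 24 higher and 22 lower in knockout CD8α+ cells, of 111. The shares called were 40.5% and 41.4%, against 35.7% and 33.9% of all probe sets tested.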
